A study of Saccharomyces cerevisiae with 8 samples.

Results

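The comparison described here set inductant 1, a yeast line in which the state named [SMAUG+] had been induced, against naive cells of the same background. It concerned 4 of the 8 libraries of the series, chosen by their titles: 2 replicates of inductant 1 and 2 of naive cells. All strains were Saccharomyces cerevisiae BY4741, a laboratory haploid of mating type a that carries deletions in the marker genes LEU2, MET17 and URA3 and a partial deletion of HIS3. Inductant 1 was wild type at VTS1. Per the labels, its cells had overexpressed VTS1 from a plasmid for 48 h, had then lost that plasmid and had been grown on for several generations before sampling. The naive cells were wild type and untreated; the sources used here do not say whether they had ever carried a control plasmid. The other 4 libraries were inductant 2, from a second, independent overexpression of VTS1, and an untreated vts1 deletion strain; they entered the fit to estimate the spread between replicates. All cultures had a volume of 50 ml and were in exponential growth, and their total RNA was depleted of rRNA. Both replicates of inductant 1 stem from 1 induction, so their spread does not cover differences between inductions.

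Vts1 is the yeast member of the Smaug family of RNA-binding proteins. It binds hairpins in transcripts through its SAM domain and recruits the Ccr4-Not complex, which shortens the poly(A) tail and so starts decay. Yeast prions are protein states that pass from mother to daughter cells through the cytoplasm and can outlast the event that started them. A short overexpression of the protein is a common way to induce one, and the comparison with naive cells asks which transcripts differ after the overexpression has ended.

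The known Vts1 target YIR016W shows what the protein recognises. Its coding sequence on the R64 reference genome (chromosome IX, 382628 to 383425, plus strand) holds the following hairpin at chrIX:382840-382859, with the loop in capitals.
YIR016W hairpin: agatggcgCAGGcgccatcc
The level of YIR016W was 36.2 and 45.3 CPM, a read count scaled to library size, in inductant 1 replicates 1 and 2, and 44.7 and 48.4 CPM in naive replicates 1 and 2. The groups overlapped, and the log2 fold change was -0.19 ± 0.11 (standard error of the fit; adjusted p = 0.346 in edgeR's quasi-likelihood test). Here and below, values of a group are given for replicate 1 and then replicate 2, fold changes are log2 of inductant 1 over naive, and the error after ± is the standard error of that fit with n = 2 libraries in each group. Adjusted p-values come from the same edgeR test with Benjamini-Hochberg adjustment over 6230 genes, and a gene was called at an adjusted p under 0.05.

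Library depth was 19744518 and 27501966 estimated counts for inductant 1 and 21564079 and 24860631 for naive cells, against 18431474 to 27501966 over the series. VTS1 itself had 490 and 650 counts in inductant 1 and 472 and 488 in naive cells, with 0 and 2 in the deletion strain. Its log2 fold change of 0.23 ± 0.15 did not pass the test (adjusted p = 0.394), so the overexpressed gene was not measurably high after the plasmid was gone. LEU2, MET17 and URA3 were at 0 counts in every library. HIS3, of which this background keeps part, was counted in all 8 and had 64.8 and 61.7 CPM in inductant 1 against 27.9 and 49.9 CPM in naive cells (adjusted p = 0.17). Of the 6 markers of a cells, MFA1 and MFA2 were listed at 0 in every library; the 6 together summed to 617 and 616 CPM in inductant 1 and 616 and 588 CPM in naive cells. The 4 markers of alpha cells summed to 29.6 and 29.7 CPM against 25.2 and 25.8 CPM, and 4 meiosis genes to 35.5 and 36.5 CPM against 35.9 and 39.6 CPM, with no member called. The median log2 fold change of the genes on a nuclear chromosome lay between -0.03 (chromosome VII) and 0.05 (chromosome I). The naive replicates differed from each other more than those of any other group, by a median of 0.154 on the log2 scale against 0.106 for inductant 1.

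In inductant 1, 274 of 6230 genes differed from naive cells, which is 4.4% of those tested. Of these, 75 (1.2%) were higher and 199 (3.19%) were lower. Most changes were modest: the median was 0.43 among the higher genes and -0.51 among the lower, and 87 genes (1.4% of those tested) were called and changed by at least 1.5-fold, 13 upward and 74 downward. The genes that fell included 56 ribosomal protein genes and 31 genes of the general stress response, together 43.7% of all that fell. The genes that rose included 7 of the 46 on the G1/S list (15.2%). RNA was taken from whole cultures, so fewer cells in a state and less RNA per cell cannot be told apart.

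All 274 called genes had both inductant 1 libraries above or both below both naive libraries. Over all genes tested, 24.0% lay above and 26.1% below in this sense. Without inductant 1 replicate 1 the test called 24 genes, and without replicate 2 it called 48. Without naive replicate 2 it called 1048, of which 51.0% were higher, against 27.4% in the fit of all libraries. Leaving out a deletion library gave 115 and 107. In each of the 8 fits that left out 1 library, 14 genes were called: YOX1 and YLL067C higher (the latter passed the filter on low counts only through inductant 1), and CWP1, HXT7, ALD6, RPI1, PNS1, EGO4, GPH1, TPS2, USV1, SLT2, HAP4 and CCW22 lower. The test limma on log2(TPM + 1) called 16 genes, 7 higher and 9 lower, and shared 13 with edgeR. DESeq2 called 480, of which 36.2% were higher.

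**Figure D1:**
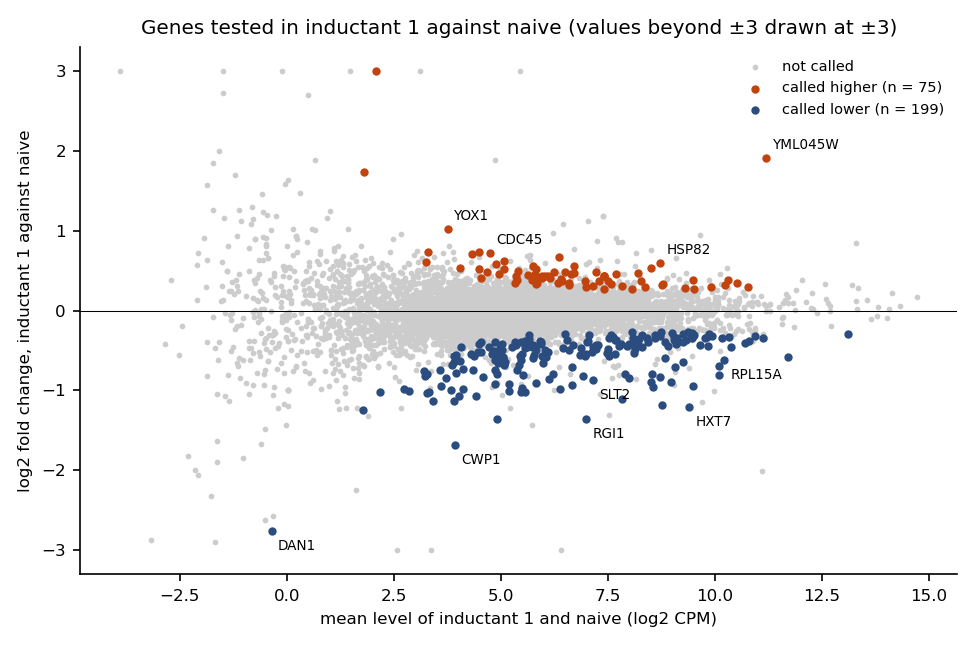
Each point is 1 of the 6230 genes tested, placed by its mean level in inductant 1 and naive libraries (x, log2 CPM) and its log2 fold change, inductant 1 against naive (y; values beyond 3 in either direction are drawn at 3). The 199 genes called lower outnumber the 75 called higher, and YML045W, YOX1, CWP1 and DAN1 lie at the edges of the cloud.

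Of the ribosomal protein genes 56 fell in inductant 1 and 0 rose. They code for the proteins of the cytosolic ribosome, and their transcription follows nutrient supply and growth. Of 138 genes listed, 135 passed the filter on low counts; 56 of them (41.5%, against 3.19% of all genes tested) were called lower and 0 higher. All 135 had both inductant 1 libraries below both naive libraries, against 26.1% of all genes tested. Their median log2 fold change was -0.30, with a range of -1.23 to -0.09, against -0.0046 for all genes. The large subunit (31 of 78 called, median -0.31) and the small subunit (25 of 57, median -0.29) moved by a like amount.

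The summed level of the 135 genes was 75540 and 75840 CPM in inductant 1 and 98940 and 89080 CPM in naive cells. It was 93570 and 84860 CPM in inductant 2 and 88980 and 88250 CPM in the deletion strain, so both inductant 1 libraries were the lowest of the 8. The same order, both inductant 1 libraries below the other 6, was found in 117 of the 135 genes and in 490 of all 6230 genes (7.87%). RPL15A, for a protein of the large subunit, had 915 and 972 CPM in inductant 1 and 1583 and 1312 CPM in naive cells, a log2 fold change of -0.62 ± 0.09 (adjusted p = 0.00772). RPS30B, which codes for a small subunit protein, had 57.0 and 55.8 CPM against 86.8 and 74.3 CPM, a log2 fold change of -0.51 ± 0.09 (adjusted p = 0.0149). RPL11A had 688 and 691 CPM against 976 and 882 CPM, a log2 fold change of -0.43 ± 0.07 (adjusted p = 0.00944). In all 3 genes the inductant 1 replicates lay close together and naive replicate 1 was the highest of the 4. RPL33B (-0.55), RPL40A (-0.37) and RPS16B (-0.40) fell as well. The low-level paralog RPL22B had 7.17 and 6.19 CPM against 18.5 and 10.9 CPM and fell by 1.14 on the log2 scale. Many ribosomal proteins are coded by near-identical gene pairs that share reads, so the split of a change within a pair is uncertain.

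No ribosomal protein gene was called without inductant 1 replicate 1 or without replicate 2, where the 7 named above had adjusted p-values of 0.0962 to 0.18 and 0.0607 to 0.206. RPL22B was also lost without either inductant 2 library (0.0521 and 0.0528), without either deletion library (0.0782 and 0.0769) and without naive replicate 1 (0.0627), where its fold change was -0.71. Without naive replicate 1 the count was 22, without naive replicate 2 it was 117, and without a deletion library it was 8 and 6. The group's median stayed below 0 in all of these, at -0.32, -0.29, -0.23, -0.37, -0.30 and -0.30. With limma on log2(TPM + 1) no member was called and the median was -0.19, while the median of all genes was 0.09. Coding length moved with the fold change: genes other than ribosomal protein genes had medians of -0.09 up to 300 bases and 0.09 above 2700 bases. In inductant 2 against naive these medians were -0.08 and 0.11. Above 2700 bases 24 of 668 such genes were called higher in inductant 1 and 4 lower. At 300 to 600 bases 2 of 1166 were called higher and 28 lower. Ribosomal protein genes are short, with a median coding length of 435 bases. Within 300 to 600 bases their median was -0.30 (89 genes), against -0.06 for the 1166 other genes of that length and -0.08 for the 69 of those with more than 100 CPM in naive cells.

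**Figure D2:**
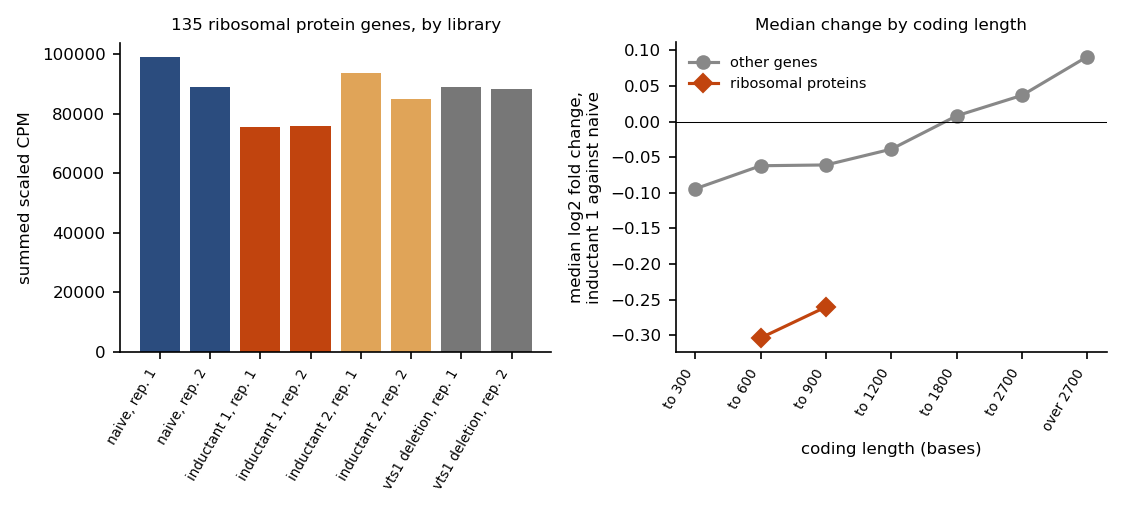
Left, summed normalised level (CPM) of the 135 ribosomal protein genes in each library; both inductant 1 bars, 75540 and 75840 CPM, are the lowest of the 8. Right, median log2 fold change, inductant 1 against naive, by coding length for ribosomal protein genes and all other genes. Ribosomal protein genes are drawn only at 300 to 600 bases (89 genes) and 600 to 900 bases (25 genes). At 300 to 600 bases the medians of ribosomal protein genes and of other genes are -0.30 and -0.06.

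Upstream sequences of 2 of these genes are shown because Rap1, the activator of most ribosomal protein genes, binds sites with a short core there. The window runs from 300 to 101 bases before the coding start, which leaves out most 5′ leaders, in the R64 genome as given by RefSeq, and is printed on the coding strand. Capitals mark CCNTACA or its reverse complement TGTANGG, a core written after the data had been seen.
RPS30B (chrXV:678894-679093, minus strand): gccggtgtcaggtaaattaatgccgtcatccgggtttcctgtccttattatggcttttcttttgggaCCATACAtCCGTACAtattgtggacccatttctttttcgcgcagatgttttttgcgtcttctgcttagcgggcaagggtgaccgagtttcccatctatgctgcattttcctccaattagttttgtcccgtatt
RPL15A (chrXII:202691-202890, minus strand): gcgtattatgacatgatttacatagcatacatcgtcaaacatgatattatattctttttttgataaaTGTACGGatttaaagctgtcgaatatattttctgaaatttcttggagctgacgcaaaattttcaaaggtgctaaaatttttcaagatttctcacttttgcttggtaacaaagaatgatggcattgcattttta
This core, on either strand, was in 25.9% of the windows of ribosomal protein genes, in 30.4% of those called lower and in 7.23% of all 5988 windows. RPL33B, RPL11A, RPL40A and RPS16B had none in this window.

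Genes of the general stress response also fell. The list holds genes that yeast raises under many stresses and on leaving exponential growth, largely through the paralogous activators Msn2 and Msn4. Of its 84 genes, all tested, 31 (36.9%, against 3.19% of all genes) were called lower and 1 was called higher, AMS1 (0.46), for the vacuolar alpha-mannosidase. The median log2 fold change was -0.33, and 49 of 84 genes had both inductant 1 libraries below both naive libraries. Over all genes tested this share was 26.1%. The summed level of the list was 11590 and 11950 CPM in inductant 1 and 13760 and 15850 CPM in naive cells. Inductant 2 had 8234 and 9519 CPM, so inductant 1 lay between the other wild-type groups.

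Reserve carbohydrate genes had the lowest median of the stress list by role, -0.65, with 7 of 14 called lower. GSY1, a glycogen synthase, had 227 and 301 CPM in inductant 1 and 562 and 635 CPM in naive cells, a log2 fold change of -1.18 ± 0.15 (adjusted p = 0.00905). GPH1, glycogen phosphorylase, had 254.0 and 254 CPM against 437 and 554 CPM and fell by 0.96 ± 0.10 (adjusted p = 0.00298). TPS2, the trehalose phosphate phosphatase, had 448 and 530 CPM against 902 and 975 CPM and fell by 0.94 ± 0.10 (adjusted p = 0.00298). Enzymes of both synthesis and breakdown were therefore among those that fell; GLG1, GLC3, GSY2 and PGM2, at -0.91, -0.90, -0.84 and -0.89, were the others.

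Of 8 regulators on the list 4 fell, with a median of -0.46. USV1, a zinc finger transcription factor, had 19.0 and 21.0 CPM against 35.8 and 39.7 CPM, a log2 fold change of -0.91 ± 0.11. GAC1, a subunit that directs protein phosphatase 1 to glycogen synthase, had 49.9 and 48.8 CPM against 84.7 and 93.3 CPM and fell by 0.85 ± 0.11. GIS1, a transcription factor of the passage into stationary phase, had 73.5 and 79.8 CPM against 116 and 133 CPM and fell by 0.70 ± 0.09. All 3 had an adjusted p of 0.00298, and in each the gap between the groups was larger than the spread within them. XBP1, a transcriptional repressor, had 24.7 and 27.0 CPM against 36.6 and 37.9 CPM and fell by 0.53 (adjusted p = 0.0254).

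Redox genes gave 5 called lower of 14, among them the cytosolic catalase gene CTT1 with 27.1 and 35.6 CPM against 58.1 and 69.6 CPM (log2 fold change -1.02, adjusted p = 0.0123) and GAD1, glutamate decarboxylase, at -0.48. Heat shock and membrane genes gave 4 of 16 with a median of -0.36, and the remaining members 11 lower and 1 higher of 32. RGI1, a gene of energy metabolism under respiratory growth, had 62.8 and 80.1 CPM against 175 and 192 CPM, a log2 fold change of -1.36 ± 0.17 (adjusted p = 0.00819). EGO4 had 11.6 and 11.5 CPM against 23.2 and 22.6 CPM and fell by 0.99 ± 0.12 (adjusted p = 0.00298). YJL107C, whose frame overlaps PRM10, had 4.79 and 7.92 CPM against 13.5 and 12.7 CPM and fell by 1.03.

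Without inductant 1 replicate 1, 5 stress genes were called lower, and without replicate 2, 14. The median stayed at -0.29 and -0.36. Without naive replicate 1 the list gave 28 lower, and without naive replicate 2 it gave 32 lower and 9 higher, with medians of -0.36 and -0.28. Of the stress genes named above, only GSY1, GPH1, TPS2, USV1 and EGO4 kept their calls without inductant 1 replicate 1, and the others had adjusted p-values of 0.0531 to 0.194. AMS1, XBP1, GAD1 and PGM2 lost theirs without replicate 2 (at most 0.171), AMS1, GSY1, GLC3 and YJL107C without naive replicate 1 (at most 0.0935), GLC3 without naive replicate 2 (0.0585), and AMS1, XBP1, GAD1 and YJL107C without a deletion library (at most 0.0707). With limma, 2 of the list's genes were called, USV1 and EGO4 among those named.

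The stress response element, CCCCT or its complement AGGGG, is the core that Msn2 and Msn4 bind. USV1 and EGO4 are shown because their calls held in every fit that left out 1 library and their windows carry it; capitals mark it.
USV1 (chrXVI:115012-115211, plus strand): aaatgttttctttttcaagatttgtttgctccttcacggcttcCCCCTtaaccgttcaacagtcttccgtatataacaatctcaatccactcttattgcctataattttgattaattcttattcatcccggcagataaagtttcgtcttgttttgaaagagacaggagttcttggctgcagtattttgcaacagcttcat
EGO4 (chrXIV:692261-692460, plus strand): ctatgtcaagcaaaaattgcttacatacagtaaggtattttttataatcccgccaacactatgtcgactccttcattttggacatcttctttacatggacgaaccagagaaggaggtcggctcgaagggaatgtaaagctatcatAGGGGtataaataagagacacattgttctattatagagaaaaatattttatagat
The element, on either strand, was in 16.2% of all windows, in 33.3% of those of the 186 genes called lower that have a window and in 13.3% of the 75 called higher. Among the stress genes it was in 61.3% of the 31 that fell and in 66.0% of the other 53, so its presence did not separate members that fell from those that did not. GPH1, TPS2, GAC1 and GIS1 had none in this window.

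Some genes of glucose uptake fell as well. Yeast sets its hexose transporters by the glucose level: high-affinity forms are kept low when glucose is plentiful. Of 46 genes of hexose transport and glucose repression tested (47 listed), 5 (10.9%, against 3.19% of all genes) fell and 0 rose, and the median of the list was -0.15. All 5 were transporters, and the other 10 of the 15 transporters tested were not called. HXT7, a high-affinity hexose transporter, had 400.2 and 416 CPM in inductant 1 and 874 and 1019 CPM in naive cells, a log2 fold change of -1.21 ± 0.08 and the smallest adjusted p of all genes, 8.2e-05. HXT7 is nearly identical to HXT6, and reads of the pair may be split between them. HXT2 had 764 and 894 CPM against 1432 and 1258 CPM and fell by 0.70 ± 0.09 (adjusted p = 0.00407). HXT4 (-0.60), the maltose permease gene MAL31 (-0.58) and the alpha-glucoside permease gene MAL11 (-0.54) fell too. No gene of the sensors, the repression pathway or the repressed enzymes was called.

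HAP4, the regulatory subunit of the Hap complex that activates respiratory genes, had 245 and 294 CPM against 447 and 491 CPM and fell by 0.80 ± 0.10 (adjusted p = 0.00298). The genes of respiration and the TCA cycle did not follow as a group, and their median was 0.10. Of 55, 1 rose (1.82%, against 1.2% of all genes), ATP1 (0.29), a subunit of ATP synthase. The 2 that fell (3.64%, against 3.19%) were HAP4 and NDI1 (-0.37), the internal NADH dehydrogenase. RAS2, which activates adenylate cyclase, had 109 and 113 CPM against 146 and 146 CPM and fell by 0.40 ± 0.07 (adjusted p = 0.00909). It was the only called gene of 20 of the cAMP and protein kinase A list (5.0%, against 3.19% of all genes). RPI1, known as an inhibitor of the Ras pathway, had 12.4 and 8.80 CPM against 22.9 and 21.2 CPM and fell by 1.07 ± 0.15 (adjusted p = 0.0069). In glycolysis and fermentation 1 of 25 genes was called (4.0%, against 3.19% of all genes called lower), ADH1, alcohol dehydrogenase (-0.30), and the median was -0.03.

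HXT7, HAP4 and RPI1 kept their calls in each fit that left out 1 library. Without inductant 1 replicate 1, HXT2, HXT4, MAL31, MAL11, NDI1, ATP1, RAS2 and ADH1 lost theirs (adjusted p 0.0626 to 0.215), and the same genes other than HXT2 did so without replicate 2 (0.0595 to 0.19). ATP1 and ADH1 were lost without naive replicate 1 and without either inductant 2 library (at most 0.152), and these 2, MAL11 and NDI1 without a deletion library (at most 0.113); MAL11 was also lost without naive replicate 2 (0.0624). Of these genes HXT7 alone was also called by limma on log2(TPM + 1).

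A minority of the G1/S genes rose and none fell. In late G1 the factors SBF and MBF raise cyclins and replication genes. Of the 46 genes listed, 7 (15.2%, against 1.2% of all genes) rose, 0 fell and 39 were not called. The median was 0.17, and 25 of the 46 had both inductant 1 libraries above both naive libraries, against 24.0% of all genes tested. YOX1, a repressor of genes of the M/G1 boundary, had 19.7 and 16.7 CPM in inductant 1 and 9.43 and 8.42 CPM in naive cells, a log2 fold change of 1.03 ± 0.13 (adjusted p = 0.00298). PCL1, a G1 cyclin of the kinase Pho85, had 29.6 and 26.3 CPM against 18.0 and 15.5 CPM and rose by 0.74 ± 0.11 (adjusted p = 0.00779). CDC45, of the replicative helicase, had 34.2 and 32.7 CPM against 20.1 and 20.3 CPM and rose by 0.73 ± 0.10 (adjusted p = 0.00523). In these 3 genes the naive libraries lay close together and well below inductant 1. CDC6, which loads the helicase at origins, rose by 0.59, MCD1, a cohesin subunit, by 0.40, CDC21, thymidylate synthase, by 0.38 and TOF1, a fork protection factor, by 0.41. Within the list, replication and cohesion genes had 5 of 24 called (median 0.23), cyclins and regulators 2 of 16 (0.17) and bud emergence 0 of 6 (-0.02).

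The element ACGCGT, a palindrome that MBF binds, is shown in capitals in the windows of 2 genes that rose.
CDC45 (chrXII:346042-346241, minus strand): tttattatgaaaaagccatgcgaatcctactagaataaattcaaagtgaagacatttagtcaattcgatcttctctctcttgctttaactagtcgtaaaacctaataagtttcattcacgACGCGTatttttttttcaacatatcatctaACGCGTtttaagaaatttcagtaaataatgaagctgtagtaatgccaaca
CDC21 (chrXV:467690-467889, minus strand): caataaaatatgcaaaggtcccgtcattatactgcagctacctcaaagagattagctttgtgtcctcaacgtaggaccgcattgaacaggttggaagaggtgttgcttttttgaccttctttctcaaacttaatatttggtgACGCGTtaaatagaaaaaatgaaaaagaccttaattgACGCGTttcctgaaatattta
The element was in 2.92% of all windows, in 9 of the 75 genes called higher and in 1.08% of those called lower. In the G1/S list it was in 34.8% of all windows and in 5 of the 7 that rose; YOX1 and PCL1 had none in this window.

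Of 41 genes of G2/M and M/G1, 3 (7.32%, against 1.2% of all genes) rose and 1 fell (2.44%, against 3.19%), with a median of 0.14. WSC4, listed both there and with the cell wall, had 42.3 and 39.4 CPM against 24.3 and 28.6 CPM and rose by 0.62 ± 0.10 (adjusted p = 0.00872). CTS1 (0.29), an endochitinase, and DSE4 (0.37), a glucanase, act in the separation of daughter from mother cells; of the 12 genes with that role 2 rose and the median was 0.20. HSL7 (-0.46), a regulator of the morphogenesis checkpoint, fell. Of 11 histone genes 2 fell (18.2%, against 3.19% of all genes), HTA1 (-0.49) and HHF2 (-0.30), and 0 rose. Their median was -0.18.

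In the fits that left out a library, YOX1 kept its call throughout, and it alone of the cell cycle genes named here did so without inductant 1 replicate 1, where the others had adjusted p-values of 0.0569 to 0.217. PCL1 and CDC45 lost their calls in that fit only. Without replicate 2, CDC6, CDC21, TOF1, WSC4, CTS1, DSE4, HSL7, HTA1 and HHF2 were lost (0.0562 to 0.227). CDC6, MCD1, CDC21, TOF1, CTS1, DSE4 and HSL7 were also lost without naive replicate 1, without either inductant 2 library and without either deletion library, with adjusted p-values of at most 0.137, and HHF2 without either deletion library (at most 0.11). The G1/S count was 1 and 4 without inductant 1 replicate 1 and replicate 2, 3 without naive replicate 1 and 15 without naive replicate 2, and the list's median lay between 0.16 and 0.21 in these fits.

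**Figure D3:**
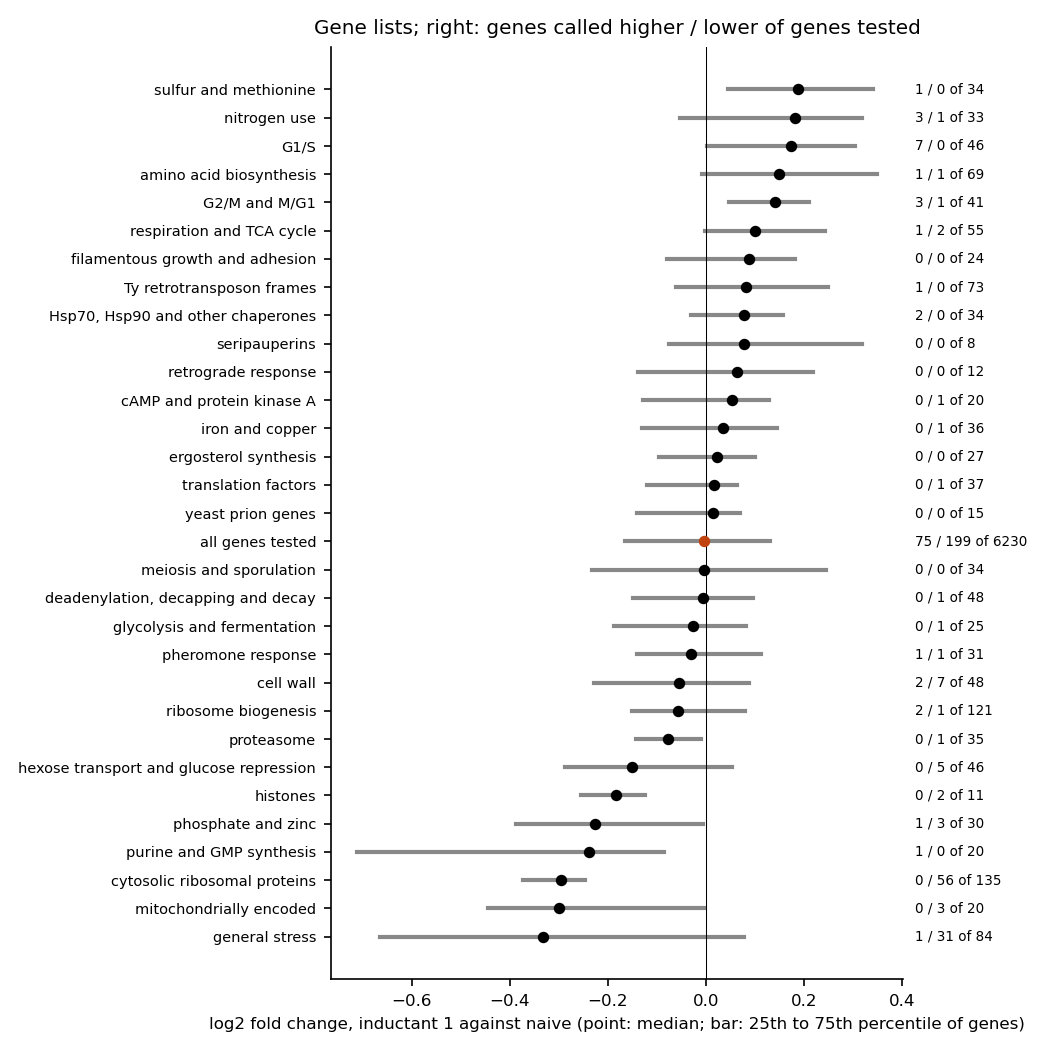
For each of the 30 gene lists and for all genes tested (orange), the point is the median log2 fold change, inductant 1 against naive, and the bar spans the 25th to 75th percentile of its genes; the numbers at the right count genes called higher and lower of those tested. General stress (1 and 31 of 84) and ribosomal proteins (0 and 56 of 135) lie at the low end, and G1/S (7 and 0 of 46) near the high end.

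Cell wall genes changed in both directions: of 48, 7 fell (14.6%, against 3.19% of all genes) and 2 rose (4.17%, against 1.2%), and the median was -0.06. CWP1, a mannoprotein linked to the wall, had 5.75 and 8.57 CPM in inductant 1 and 20.1 and 26.3 CPM in naive cells, a log2 fold change of -1.68 ± 0.19 (adjusted p = 0.00298). DAN1, a mannoprotein known from anaerobic growth, had only 3 and 6 counts in inductant 1 against 37 and 24 counts in naive cells, with a fitted log2 fold change of -2.77 ± 0.60 (adjusted p = 0.0309). SLT2, the kinase of the cell wall integrity pathway, had 86.6 and 114 CPM against 172 and 197 CPM and fell by 0.87 ± 0.12 (adjusted p = 0.00759). RLM1, the transcription factor that Slt2 activates, fell by 0.46, and PRM5, a membrane protein gene known as an Rlm1 target, had 31.1 and 35.7 CPM against 59.4 and 57.3 CPM and fell by 0.80 ± 0.10 (adjusted p = 0.00298). Of the 18 genes of integrity signalling on the list, SLT2 and RLM1 were lower, WSC4 was higher and 15 were not called, with a median of -0.19. UTR2, which links chitin to glucan, rose by 0.54 ± 0.09 (409 and 450 CPM against 267 and 324 CPM, adjusted p = 0.00997). Of the pheromone response, 31 of 34 genes were tested and only PRM5 and FIG2 (0.39), an adhesin of mating, were called. Each was 3.23% of those tested, against 3.19% of all genes called lower and 1.2% called higher.

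CWP1 and SLT2 kept their calls in every fit without 1 library. RLM1, UTR2, DAN1, WSC4 and FIG2 lost theirs without either inductant 1 library (adjusted p at most 0.236), and PRM5 without replicate 1. DAN1 was also lost without naive replicate 1 (0.118), FIG2 without naive replicate 2 (0.0629) and without either inductant 2 library, and DAN1, RLM1 and FIG2 without a deletion library (at most 0.098). DESeq2 gave no adjusted p for DAN1.

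In nitrogen use, 33 of 34 genes were tested, 3 rose (9.09%, against 1.2% of all genes) and 1 fell (3.03%, against 3.19%), and the median was 0.18. The summed level was 2797 and 2834 CPM in inductant 1 and 2452 and 2952 CPM in naive cells, which overlap. MEP2, an ammonium permease, had 26.2 and 23.2 CPM in inductant 1 and 13.0 and 17.3 CPM in naive cells and rose by 0.70 ± 0.16 (adjusted p = 0.0383). The GATA factors GAT1, an activator (0.52), and GZF3, a repressor (0.49), rose too, while GDH2, the glutamate dehydrogenase that releases ammonium, fell by 0.52. Of 69 genes of amino acid biosynthesis, TRP5 (0.38), tryptophan synthase, rose and GCV3 (-0.43), of glycine cleavage, fell, and the median was 0.15. Each was 1.45% of the list, against 1.2% of all genes called higher and 3.19% called lower. The 8 arginine genes had a median of 0.79 with fold changes of 0.54 to 0.95, but none was called. Their summed level was 2660.0 and 2277 CPM in inductant 1 against 561 and 2196 CPM in naive cells, so naive replicate 1 alone was low. The deletion libraries were as low, at 550 and 537 CPM. Of 34 sulfur and methionine genes 1 rose (2.94%, against 1.2% of all genes), MET5 (0.48), a subunit of sulfite reductase, with a list median of 0.19.

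In phosphate and zinc supply 3 of 30 genes fell, against 3.19% of all genes, and 1 rose, against 1.2%, with a median of -0.23. SPL2, a regulator of low-affinity phosphate uptake, had 3.73 and 5.80 CPM against 10.9 and 8.47 CPM and fell by 1.0 ± 0.23 (adjusted p = 0.0362). VTC3, of polyphosphate synthesis (-0.39), and IZH2, a membrane protein of zinc homeostasis (-0.49), fell, and PHO4, the activator of the phosphate pathway, rose by 0.45. In purine synthesis BAS1 (0.40), a transcriptional activator, was the only called gene of 20 (5.0%, against 1.2% of all genes), and the list's median was -0.24. Its summed level was 8352 and 9082 CPM in inductant 1 and 12270 and 9723 CPM in naive cells. Of 36 iron and copper genes 1 fell (2.78%, against 3.19% of all genes). It was the copper transporter gene CTR1 (42.9 and 43.2 CPM against 66.1 and 64.2 CPM, log2 fold change -0.60 ± 0.10, adjusted p = 0.00872).

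Every gene called in these nutrient lists lost its call without inductant 1 replicate 1 (adjusted p 0.0927 to 0.215) and without replicate 2 (0.0593 to 0.217). Without naive replicate 1, GCV3, TRP5, MEP2, GAT1, MET5, BAS1, PHO4 and SPL2 did so (at most 0.115), and without a deletion library GCV3, TRP5, MEP2, GAT1, GZF3, MET5, VTC3, PHO4 and SPL2 did (at most 0.102). TRP5 and MET5 were also lost without either inductant 2 library (at most 0.0572).

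Among genes of protein and RNA metabolism few were called. HSP82, the inducible Hsp90, had 501 and 515 CPM in inductant 1 and 352 and 319 CPM in naive cells and rose by 0.60 ± 0.10 (adjusted p = 0.0166). Its sequence is close to that of HSC82, with which it may share reads. SSC1, the mitochondrial Hsp70, rose by 0.38, and the other 32 chaperone genes were not called. The share of chaperone genes called higher was 5.88%, against 1.2% of all genes. Of 121 ribosome biogenesis genes 2 rose (1.65%, against 1.2% of all genes) and 1 fell (0.826%, against 3.19%), and the median was -0.06. Omitting naive replicate 1 moved this median to 0.09, and omitting naive replicate 2 moved it to -0.18. Its sign therefore depended on the naive library used. IFH1, the coactivator of ribosomal protein genes, had 156 and 159 CPM against 125 and 129 CPM and rose by 0.31 ± 0.06 (adjusted p = 0.0237). UTP18, of the small subunit processome, rose by 0.43, and DOT6, a repressor of ribosome biogenesis genes, fell by 0.43. Of 37 translation factors tested SUI1, the initiation factor eIF1, fell by 0.66, and of 35 proteasome genes RPN4, their transcriptional activator, fell by 0.45. The shares of these lists called lower were 2.7% and 2.86%, against 3.19% of all genes. Of 48 genes of deadenylation, decapping and decay 1 fell (2.08%, against 3.19% of all genes), LSM4 (-0.57), of the Lsm ring that promotes decapping. Among its 13 genes of Vts1 and deadenylation 0 were called, and their median was 0.10.

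Each of these 8 called genes lost its call without inductant 1 replicate 1 (adjusted p 0.097 to 0.198) and without replicate 2 (0.0754 to 0.224). SSC1, DOT6, SUI1 and LSM4 were lost without naive replicate 1 (at most 0.13), SUI1 and LSM4 without either inductant 2 library (at most 0.0772), and all but HSP82 and RPN4 without a deletion library (at most 0.0925).

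No gene was called by edgeR in the lists of ergosterol synthesis (27 tested), filamentous growth and adhesion (24), meiosis and sporulation (34), the retrograde response (12), seripauperins (8 of 24 listed) and genes of known yeast prions (15). The smallest adjusted p-values in them were 0.0759 for ERG13, 0.058 for MGA1, 0.08 for RED1, 0.083 for ATO3, 0.539 for PAU5 and 0.217 for PIN3.

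Mitochondrially encoded transcripts had a median of -0.30, and 3 of the 20 frames tested (28 listed) fell, against 3.19% of all genes. OLI1, the membrane ring subunit of ATP synthase, had 441 and 365 CPM in inductant 1 and 507 and 590 CPM in naive cells and fell by 0.44 ± 0.10 (adjusted p = 0.0326). The intron-encoded frames AI5_BETA (-0.45) and BI4 (-0.61) lie within COX1 and COB, so their reads cannot be told from those of the host transcripts. The summed level of the 20 frames was 7044 and 6700.0 CPM in inductant 1 and 6375 and 7419 CPM in naive cells, which overlap. All 3 calls were lost without either inductant 1 library (adjusted p at most 0.187), that of AI5_BETA also without naive replicate 1 (0.0638), and those of AI5_BETA and OLI1 without a deletion library (at most 0.0687).

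Repeated sequences gave several of the largest rises. YLL067C, a helicase frame of the Y′ element at the left end of chromosome XII (585 to 4301), had 181.1 and 204.5 estimated counts in inductant 1, 0.3 and 0.7 in inductant 2, and was at 0 in the naive and deletion libraries. Against a floor of 3 counts in each naive library it was 64.1-fold higher, on the scale of TMM-scaled CPM. That floor covers counting error only, so the ratio is not a lower bound where the split of reads among copies may shift. Y′ frames are near-identical copies among which reads are split by estimation. YRF1-1, YRF1-5 and YRF1-8 had the same values in each library. Each was called higher (log2 fold change 0.43, adjusted p = 0.0204), so the same values enter the count of called genes more than once. Their calls were lost without either inductant 1 library. YRF1-6 had 58.9 and 108 CPM in inductant 1 and 1.62 and 5.58 CPM in naive cells without being called, and YIL177C had 32.2 and 0 CPM in inductant 1. The 16 frames together summed to 1762 and 1965 CPM in inductant 1, 1659 and 1765 CPM in inductant 2 and 1271 and 1479 CPM in naive cells. Another frame of this kind, YML133C, had 92.2 and 110 CPM against 61.7 and 65.7 CPM and rose by 0.67.

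YML045W, a retrotransposon frame on chromosome XIII, had 3379 and 4087 CPM against 786 and 1193 CPM and rose by 1.92 ± 0.23 (adjusted p = 0.0192). It was the only called frame (1.37%, against 1.2% of all genes) of 73 retrotransposon frames tested (91 listed), whose median was 0.08. The summed level of these frames was 119400 and 147200 CPM in inductant 1 and 125200 and 110100 CPM in naive cells, which overlap. YFL067W, at the left end of chromosome VI, had 4.14 and 6.57 CPM against 1.33 and 1.87 CPM and rose by 1.74 ± 0.32 (adjusted p = 0.0191), and YPL277C rose by 0.73. Because YLL067C passed the filter on low counts only through inductant 1, it had to differ, and its call is given as a description; limma on log2(TPM + 1) did not call it and DESeq2 gave it no adjusted p. YML133C, YML045W, YFL067W and YPL277C lost theirs without either inductant 1 library (adjusted p at most 0.204). YML133C, YFL067W and YPL277C were also lost without naive replicate 1 (at most 0.213), YML133C without naive replicate 2 and without either inductant 2 library (at most 0.0712), and YPL277C without a deletion library (at most 0.0696).

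Of the 274 called genes 128 were in none of the lists. ALD6, the cytosolic aldehyde dehydrogenase that makes acetate, had 143 and 143 CPM in inductant 1 and 348 and 270 CPM in naive cells and fell by 1.11 ± 0.12 (adjusted p = 0.00298). ECL1, known for extending chronological lifespan, had 11.5 and 16.0 CPM against 32.0 and 26.1 CPM and fell by 1.07 ± 0.16 (adjusted p = 0.00744). FMP48, a protein kinase gene, fell by 0.65. Among the rises, FUR4, the uracil permease, had 60.4 and 67.0 CPM against 39.2 and 47.3 CPM (log2 fold change 0.56 ± 0.10, adjusted p = 0.017). TPO1, a polyamine transporter, had 124 and 127 CPM against 78.3 and 92.2 CPM (0.55 ± 0.09, adjusted p = 0.00944), and DAT1, which binds runs of A and T, rose by 0.61. Of the largest falls, YPL197C (-1.35), YPL185W (-1.25), YER067C-A (-1.13) and YER066C-A (-1.02) have no entry in the annotation used here. Overlap of these frames with other genes could therefore not be looked up, and their reads may be those of another gene. ALD6 kept its call in each fit without 1 library, and ECL1 lost it only without inductant 1 replicate 1. FUR4, TPO1, DAT1, FMP48, YPL197C and YPL185W lost theirs without either inductant 1 library (adjusted p at most 0.201). DAT1, YPL197C and YPL185W also did so without either inductant 2 library and without either deletion library, and DAT1 and YPL185W without naive replicate 2 (at most 0.101). YER067C-A was lost without either inductant 1 library, and YER066C-A without these, without either inductant 2 library and without naive replicate 1.

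**Figure D4:**
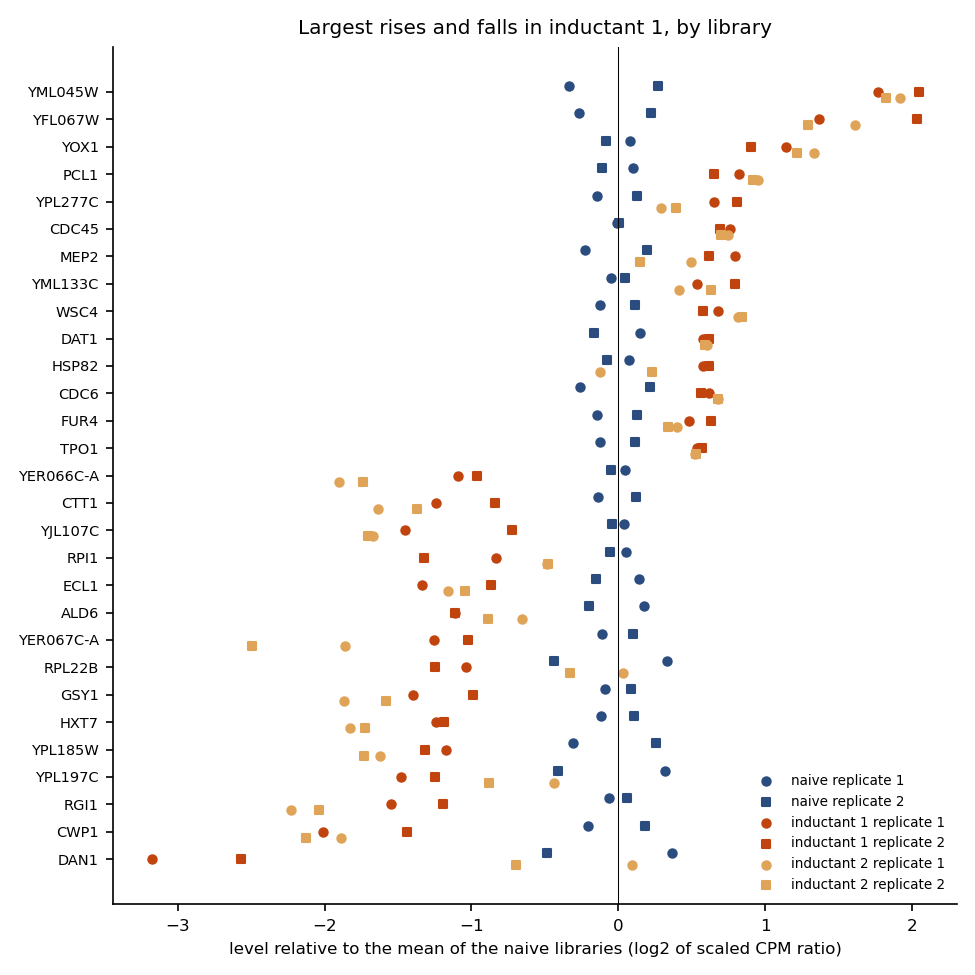
Each row is a gene among the 15 largest called rises or falls (YLL067C, at 0 in naive cells, is left out), and each point is 1 library, placed by log2 of its normalised CPM over the mean of the naive libraries. All inductant 1 points (dark orange) lie beyond the naive points (dark blue) on 1 side, because the genes were chosen for this. In HSP82 the inductant 2 points (light orange), 308 and 394 CPM, lie on either side of the naive ones, 352 and 319 CPM. In DAN1 inductant 2 had 32 and 17 counts. The edgeR test of inductant 1 against inductant 2 called neither HSP82 (adjusted p = 0.0641) nor DAN1 (adjusted p = 0.0949).

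Between inductant 1 and inductant 2 the test of the difference itself called 28 genes (0.449% of 6230), 25 higher (0.401%) and 3 lower (0.0482%) in inductant 1. Of the 84 general stress genes 12 (14.3%) were among them, all higher in inductant 1, and in 11 of the 12 the inductant 1 mean lay between naive and inductant 2. FMP48 had 25.5 and 27.7 CPM in inductant 1, 11.6 and 13.3 CPM in inductant 2 and 38.5 and 45.0 CPM in naive cells; inductant 1 was higher than inductant 2 by 1.10 ± 0.12 (adjusted p = 0.00567). NQM1, a transaldolase gene, had 27.0 and 25.6 CPM in inductant 1 and 13.3 and 13.7 CPM in inductant 2, a difference of 0.97 (adjusted p = 0.0173). XBP1 (0.83), EGO4 (0.79), SPI1 (0.72), STP4 (0.63), GAD1 (0.62), GAC1 (0.59) and HXT7 (0.56) were also higher in inductant 1. The heat shock chaperone gene HSP104 had 1109 and 1095 CPM in inductant 1, 660.1 and 817 CPM in inductant 2 and 1003 and 1088 CPM in naive cells; it was the 1 stress gene of the 12 outside the range between naive and inductant 2.

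The 3 genes lower in inductant 1 than in inductant 2 were CLB1, a mitotic cyclin, by -0.57, ILV5, of branched-chain amino acid synthesis, by -0.46, and KAP122, a karyopherin of nuclear transport, by -0.43. CLB1 had 72.3 and 67.7 CPM in inductant 1, 104.0 and 103 CPM in inductant 2 and 77.3 and 82.0 CPM in naive cells. Ribosomal protein genes gave 0 called in this contrast, so the difference of their medians against naive, -0.30 in inductant 1 and -0.08 in inductant 2, did not pass the test for any single gene. The count of 28 was 1 and 5 without inductant 1 replicate 1 and replicate 2, 1 and 35 without inductant 2 replicate 1 and replicate 2, 318 and 312 without naive replicate 1 and replicate 2, and 9 and 7 without a deletion library. Of the genes named in this contrast under the rule for named genes, all 13 lost their calls without inductant 1 replicate 1 (adjusted p 0.0516 to 0.166), and all but YLL067C did so without replicate 2 (0.067 to 0.358) and without inductant 2 replicate 1 (0.121 to 0.497).

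**Figure D5:**
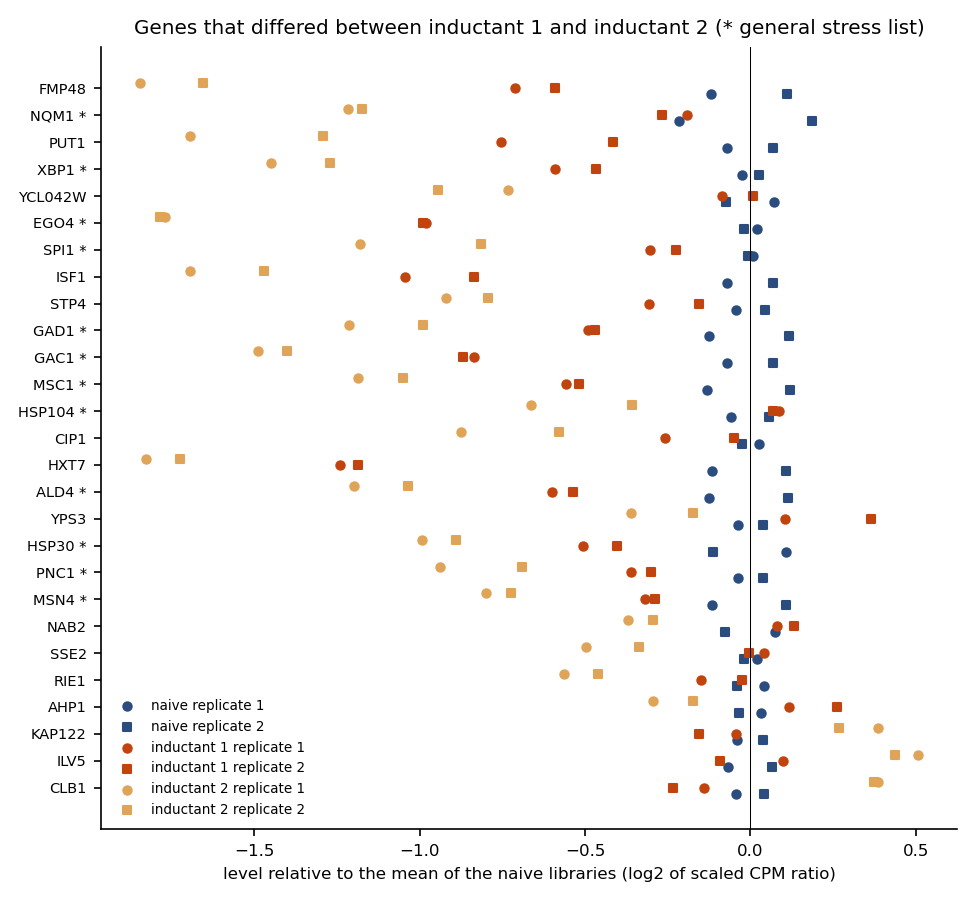
Each row is a gene called between inductant 1 and inductant 2 (YLL067C is left out), an asterisk marks the general stress list, and each point is 1 library, placed by log2 of its normalised CPM over the mean of the naive libraries. In most rows the inductant 1 points (dark orange) lie between naive (dark blue) and inductant 2 (light orange), as in FMP48 with 25.5 and 27.7 CPM between 38.5 and 45.0 CPM and 11.6 and 13.3 CPM.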

How the data were processed

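RNA of 8 yeast cultures was sequenced, 2 per group; 4 libraries form the comparison. The submitters' processing notes name kallisto and build R64, with which the authors quantified the reads; the sources used here give neither its version nor the use of strand, so overlapping genes cannot be told apart. The deposited files hold estimated counts and TPM for 6713 frames, per the file headers. The estimated counts deposited by the authors need not be whole, and 83.2% to 84.1% were whole within 1e-06. The TPM values are likewise the authors', per the file headers. Lengths were multiples of 3 in 99.97% of frames and are coding lengths.

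Rounded estimated counts entered edgeR 4.0.16 (R 4.3.3). Libraries were scaled by TMM with factors of 0.946 to 1.093, genes were filtered by group with filterByExpr, and a robust quasi-likelihood model of all 8 libraries was fitted with 1 mean per group (4 residual degrees of freedom, common biological coefficient of variation 0.096), two-sided. The scripts were tested on simulated data. CPM values are scaled by TMM. A count of 0 allows up to 3 counts, 0.109 to 0.163 CPM before TMM scaling, counting error only. Alternatives were limma 3.58.1 on log2(TPM + 1), DESeq2 1.42.0, other scalings and filters, replicate blocks and each library left out. RefSeq R64 named 6026 frames and left 687 under systematic names.

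The members and the 30 gene lists were chosen with earlier results of these data known; lists are described by counts and medians without a test. Genes were named by rule: VTS1, its neighbours and strain markers; the 15 largest called rises and falls with groups apart; up to 6 called genes of a list by p, or else its smallest p; and up to 8 in each direction against inductant 2. Other genes, among them GLG1, GLC3, GSY2, PGM2, TOF1, AMS1, HSP104 and PNS1, were named after their values were seen. RPP1, an RNase P subunit caught by a naming rule, was taken off the ribosomal protein list after its value was seen; with it, 135 of 136 genes lay below both naive libraries and the median was -0.30. RPL22B and the sequence cores follow the same choice after the data were seen. Comparisons of inductant 2 and of the deletion with naive share the naive libraries.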

Additional observations from a re-analysis of the deposited data

Results flagged for a closer look

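Of the named genes 13 differed between the inductants in the test of inductant 1 against inductant 2 itself (edgeR, adjusted p under 0.05), and are given as log2 of inductant 1 over inductant 2. YLL067C had 8.17, a fitted value that depends on the prior count because inductant 2 had 0.3 and 0.7 estimated counts, and it passed the filter on low counts only through inductant 1. The general stress genes NQM1 (0.97), XBP1 (0.83), EGO4 (0.79), SPI1 (0.72), GAD1 (0.62) and GAC1 (0.59) were higher in inductant 1. FMP48 (1.10), STP4 (0.63) and the hexose transporter gene HXT7 (0.56) were higher as well. CLB1 (-0.57), ILV5 (-0.46) and KAP122 (-0.43) were lower. In each of the 13 both inductant 1 libraries lay on the same side of both inductant 2 libraries. This separation adds no support, since the same libraries gave the calls of these 13 genes. Without inductant 1 replicate 1 none of them was called (adjusted p 0.0516 to 0.166), although 850 of all genes had an unadjusted p under 0.05, limma called 2 genes and DESeq2 called 175 with all libraries.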

How the results depend on the processing

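Counts of called genes moved far more than the directions of the named genes, many of which were named because they were called. Medians of some lists changed sign with the choice of naive library. For ribosome biogenesis genes the median came to 0.09 with naive replicate 1 omitted and to -0.18 with replicate 2 omitted. For the retrograde response it came to -0.12 and 0.30. The medians of ribosomal protein, general stress and G1/S genes kept their signs in both fits. Against naive, 274 genes were called; the count was 109 with only the 4 libraries compared, 480 with DESeq2, 16 with limma on log2(TPM + 1) and 87 at 1.5-fold or more, and with 1 library left out it ranged from 24 to 1048. Against inductant 2, 28 genes were called; the count was 113 with only the 4 libraries compared (an alternative chosen after seeing the data), 12 with upper-quartile scaling, 175 with DESeq2, 2 with limma and 12 at 1.5-fold or more, and it ranged from 1 to 318 with 1 library left out. Other scalings and filters gave 243 to 333 against naive, and upper-quartile scaling ended the calls of HSL7, FIG2, MCD1, TOF1, LSM4, DAT1 and SUI1 against naive and of GAC1 and EGO4 against inductant 2. The replicate numbers share only a number: the correlation of the differences between replicates was -0.113 for inductant 1 and naive, and -0.017 for the inductants. With the replicate block 422 genes were called against naive and 140 against inductant 2, and with the numbers crossed, chosen after seeing the data, the crossed replicate block called 175. Among the named genes, direction was reversed in 3 that were not called against naive: KAP122 was at 0.0032 with limma, ILV5 at -0.0564 without naive replicate 1 and HAP5 at -0.0141 without naive replicate 2, and over the fits without 1 library ILV5 ranged from -0.0923 to 0.0936 and HAP5 from -0.0587 to 0.114. The limma fit moved the median of all genes to 0.09. The cause of these shifts was not tested. With 2 libraries a group, leaving out 1 leaves a lone library that is assumed to vary like the other groups. Depth limits genes near the floor of 3 counts, such as DAN1.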
